A study of Mus musculus with 4 samples.

Results

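The NMDA receptor subunit genes Grin1, Grin2a, Grin2b, Grin2c, Grin2d and Grin3a were followed across the cell classes of the mouse hippocampus in 4 single-nucleus RNA libraries. The members were taken by gene symbol, by a rule that uses no measured value, although earlier results of these data were known by then. All 6 were found among the 20211 genes that are listed in every library. Each library carries 1 genotype, and the genotypes concern monoacylglycerol lipase (MAGL, gene Mgll), which degrades 2-arachidonoylglycerol, an endocannabinoid. The labels name a wild-type library, a library from total (global) MAGL knockout tissue, a library from astrocyte-specific MAGL knockout tissue and a library from neuron-specific MAGL knockout tissue. They are called the wild-type, total-knockout, astrocyte-knockout and neuron-knockout libraries below. The question put by the design is how nuclei differ when the enzyme is lost everywhere, in astrocytes or in neurons. The sources used here do not name the Cre driver, the deleted part of Mgll, the number, age and strain of the animals, or any pooling.

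Each genotype rests on a single library, so differences between libraries have no test, and the genotype cannot be told apart from the animal, the dissection or the library preparation. Levels are given in CPM, the number of a gene's unique molecular identifiers (UMIs, 1 per captured RNA molecule) in 1000000 UMIs of that cell class in that library. All intervals are 95% intervals and cover counting error only. For levels they are exact Poisson intervals, and for ratios of 2 UMI counts they are exact conditional binomial intervals. Because the genes differ in length and in how much of them is intron, a level of one subunit is compared with its own level in another class or library and not with the level of another subunit.

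NMDA receptors are glutamate-gated channels that open when glutamate and a co-agonist, glycine or D-serine, bind while the membrane is depolarised. Every receptor holds the GluN1 subunit (Grin1), which binds the co-agonist, together with GluN2 subunits (Grin2a to Grin2d), which bind glutamate and set the kinetics, or GluN3 subunits (Grin3a), which bind glycine and lower calcium entry. In the hippocampus GluN2B is present early in life and GluN2A joins it as the synapse matures, and the receptor is best known for its part in synaptic plasticity. Endocannabinoids released after synaptic activity act on presynaptic CB1 receptors and reduce transmitter release.

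In the GENCODE M21 annotation of the mm10 (GRCm38) build, all 6 genes lie on the minus strand. Grin1 spans chr2:25291181-25319187 and 34.6% of it is exon. Grin2a spans chr16:9567898-9995560 with 4.19% exon, Grin2b chr6:135713233-136173511 with 5.4%, and Grin3a chr4:49661611-49845744 with 6.67%. Grin2c spans chr11:115249169-115267243 with 27.9% exon, and Grin2d spans chr7:45831883-45878378 with 14.3%. In nuclear RNA much of the signal is intronic, so these spans are the stretches over which reads could be counted. Genes on the opposite strand overlap Grin1 (Grin1os), Grin2b (Gm14329, Gm14330, Gm26653) and Grin2d (Gm45441, Kdelr1), and Ppp3r2 lies inside Grin3a on its own strand. The sources do not state whether the authors' counting used the strand, and the share of reads from these neighbours in the subunits' counts was not tested. The deposited tables list Grin1os separately, with 441 to 628 UMIs per library against 32228 to 58239 for Grin1.

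The bases before the start site of Grin1, which was read in all neuron classes, and of Grin2c, which was read mainly in astrocytes, are shown because these genes had the widest and the narrowest distribution of the 6. Such bases could be matched for only 3 of the 6 genes. Those of Grin2d, all 250 of which overlap exon and which held 0 copies of the motif below, are not shown. They are the 250 bases before the start site of each gene in RefSeq (GRCm38.p6), read 5′ to 3′ on the minus strand, at chr2:25319188-25319437 for Grin1 and chr11:115267244-115267493 for Grin2c. Capitals mark the GC box GGGCGG, the letters bound by Sp1-family factors, which was searched on both strands.
Grin1: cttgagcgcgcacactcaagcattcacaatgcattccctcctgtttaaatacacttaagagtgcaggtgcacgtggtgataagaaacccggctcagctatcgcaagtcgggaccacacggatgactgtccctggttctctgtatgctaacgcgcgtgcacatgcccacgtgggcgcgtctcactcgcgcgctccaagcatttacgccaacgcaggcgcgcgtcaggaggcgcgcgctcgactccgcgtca
Grin2c: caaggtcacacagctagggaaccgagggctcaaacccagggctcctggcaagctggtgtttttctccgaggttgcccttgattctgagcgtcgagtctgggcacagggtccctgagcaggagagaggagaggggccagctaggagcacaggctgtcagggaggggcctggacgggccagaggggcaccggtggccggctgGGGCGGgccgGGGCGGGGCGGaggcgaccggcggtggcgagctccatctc
The Grin2c window held 3 copies of the motif on the gene's own strand, 2 of which overlap by 1 base, and had a GC content of 68.8%. The Grin1 window held 0 copies on either strand and had a GC content of 58.8%. Of 32851 windows of the same length in RefSeq, 32.7% held the motif on at least 1 strand, and the median GC content was 52.4%. A match describes letters only and says nothing of binding.

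The deposited tables held 9369 wild-type, 31243 total-knockout, 10731 astrocyte-knockout and 8945 neuron-knockout barcodes, with medians of 8904, 5456, 7448 and 8446 UMIs. After removal of predicted doublets, which made up 23.8% of the total-knockout nuclei that passed the quality filters against 2.14 to 5.99% in the others, 51161 nuclei remained. They fell into 45 clusters, named by the cell type whose markers they resembled, and 15894 nuclei lay in clusters that the fixed markers did not name. Pairs of libraries shared 108 to 466 barcode sequences. The total-knockout library stands apart: 0.0127% of its nuclei carried female RNA only, against 41.0 to 47.1% in the other libraries, and it held 726 of 755 medium spiny and 143 of 168 thalamic nuclei, cell types from outside the hippocampus. Values of male nuclei alone are therefore given beside some of its subunit results in the large classes. The smaller classes were not split by sex, except that male nuclei alone were a processing alternative for Grin2d in Vip neurons. The genes listed later as acting with the receptor were not split by sex. Mgll itself does not check the labels, because counts along a gene need not fall where it is deleted. It was read at 121, 102, 140 and 130 CPM in dentate granule neurons and at 461, 363, 370 and 559 CPM in astrocytes of the wild-type, total-, astrocyte- and neuron-knockout libraries. The astrocyte values rest on 124, 53, 20 and 69 UMIs.

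Grin1, the subunit that every NMDA receptor needs, was read in all neuron classes and was far lower in glia. In the wild-type library its level was 442 CPM in CA1 neurons, 416 in dentate granule neurons, 388 in subicular or cortical excitatory neurons and 384 in CA2 and CA3 neurons. The wild-type inhibitory classes lay below these, at 326 CPM in Sst, 309 in Vip, 309 in Lamp5, 301 in Pvalb and 260 in Cck neurons. The order from excitatory to inhibitory classes therefore held in that library, while neighbours such as the subicular and CA2 and CA3 classes, or the Vip and Lamp5 classes, lay within each other's range. Medium spiny neurons of the total-knockout library had 625 CPM, the highest class value. Astrocytes, oligodendrocytes and oligodendrocyte precursors with at least 50 nuclei lay between 0 and 33.7 CPM. Cajal-Retzius cells, the early-born Reln-expressing neurons of the outer layer, stood apart among neurons: in the total-knockout library they had 313 CPM of Grin1 (86 UMIs) but 18.2 CPM of Grin2a and 29.1 CPM of Grin2b. Their Grin2a and Grin2b levels were those of oligodendrocytes of the same library (34.2 and 32.2 CPM), at a median depth of 1553.5 UMIs per nucleus.

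**Figure D1:**
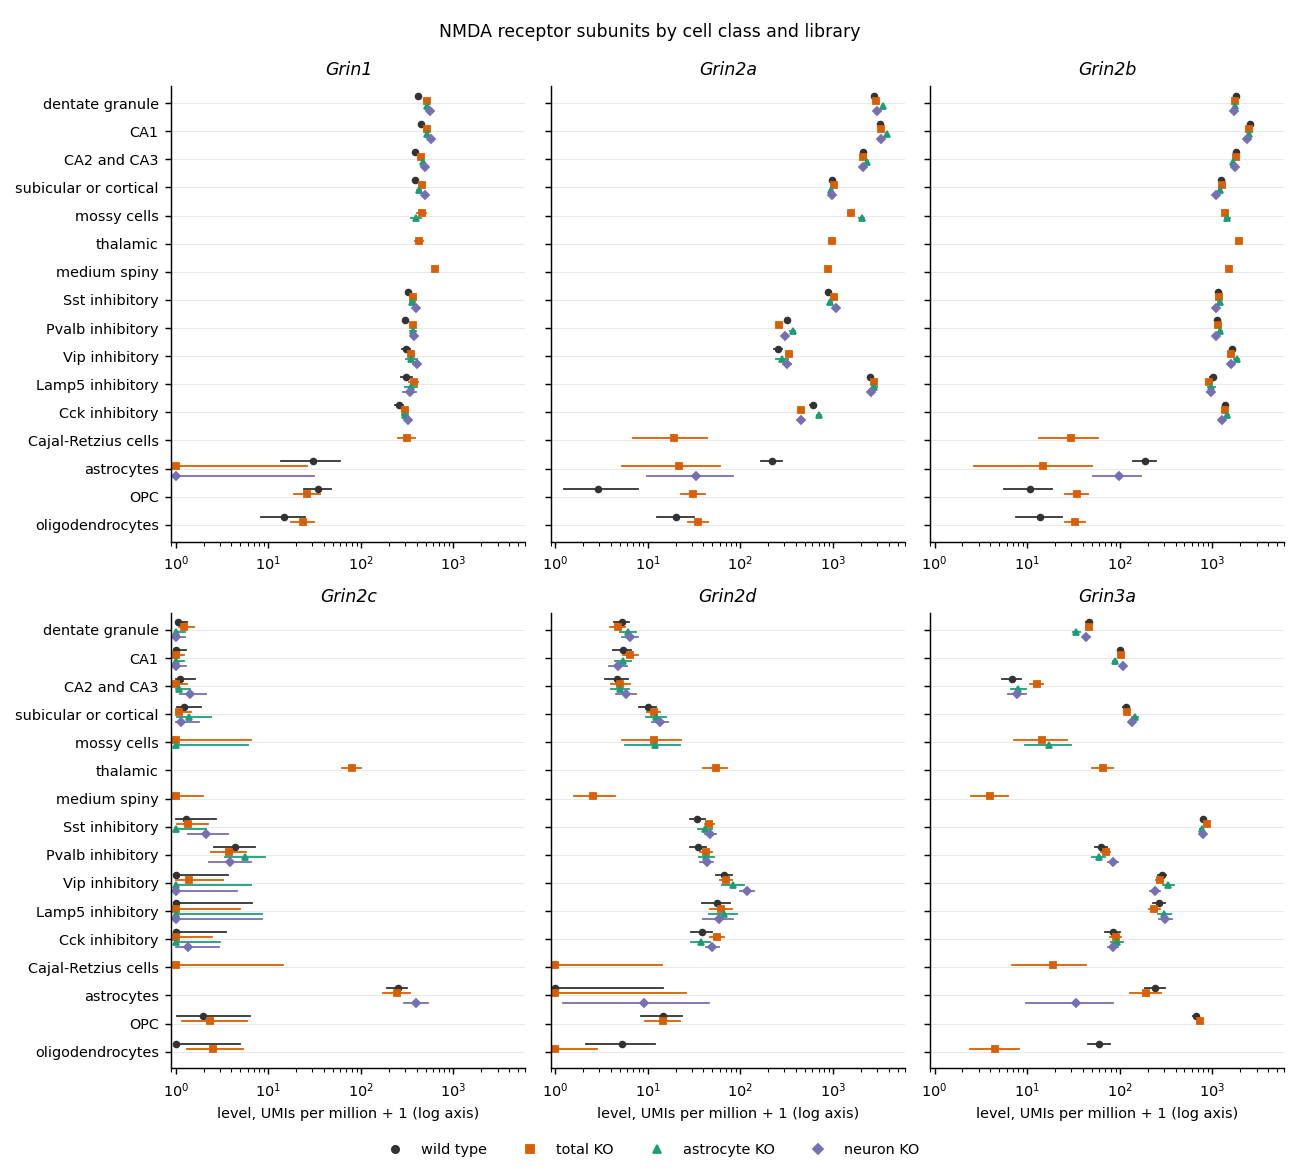
Level of each subunit gene (CPM plus 1 on a log axis, 1 panel per gene) in every cell class, 1 point per library holding at least 50 nuclei of the class, with its 95% Poisson interval. Grin1 spans all neuron classes, Grin2a and Grin2b are highest in CA1 neurons, and Grin2c, Grin2d and Grin3a are each concentrated in a few classes.

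Grin1 was higher in all 3 knockout libraries than in the wild-type library, in all 4 of the large classes (dentate granule, CA1, CA2 and CA3, and inhibitory neurons). The large class of inhibitory neurons pools the 5 named inhibitory classes, so nuclei of unnamed clusters are not in it. In dentate granule neurons the wild-type level was 416 CPM, and the total-, astrocyte- and neuron-knockout levels were 521, 518 and 552 CPM. The neuron-knockout difference was 0.41 on the log2 scale (0.36 to 0.45), and the total-knockout difference was 0.32 (0.28 to 0.37). CA1 neurons had 442 CPM against 515, 521 and 572, and CA2 and CA3 neurons had 384 against 449, 463 and 497. Inhibitory neurons had 305 CPM in the wild-type library and 355, 347 and 371 in the others. The wild-type library was the lowest in each of these classes, by less than 1.5-fold. It was also the lowest in subicular or cortical neurons (388 against 423 to 489 CPM) and in each of the 5 inhibitory classes, as in Sst neurons (326 against 358 to 395) and Cck neurons (260 against 299 to 325). Counting error alone could cover some of these. The interval of the log2 difference was -0.14 to 0.47 in astrocyte-knockout and -0.18 to 0.43 in neuron-knockout Lamp5 neurons. It was -0.05 to 0.42 in astrocyte-knockout Vip neurons. The 12 differences of the 4 large classes share 1 wild-type library, so a single low wild-type value enters all of them. Among all genes tested in dentate granule neurons the Grin1 difference lay at percentile 95.1, 93.8 and 96.5 in the total-, astrocyte- and neuron-knockout libraries. It lay at percentile 87.9, 89.1 and 95.6 in CA1 neurons, 89.5, 92.1 and 95.03 in CA2 and CA3 neurons, and 90.8, 88.2 and 92.4 in inhibitory neurons. The lowest percentile in an excitatory class was 75.6, in subicular or cortical neurons of the astrocyte-knockout library. Among the single inhibitory classes the lowest was 67.6, in Lamp5 neurons of the neuron-knockout library.

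The Grin1 difference had the same direction within each sex of nuclei where it could be compared. The total-knockout library gave no female value. In dentate granule neurons the wild-type library had 418 CPM in female and 409.9 in male nuclei, against 499 to 572 in the knockout libraries. CA1 neurons had 454 and 425 CPM against 496 to 586, CA2 and CA3 neurons 378 and 389 against 448 to 515, and inhibitory neurons 300.5 and 317 against 328 to 400.1. No sex-matched wild-type value reached a knockout value in these 4 classes. In male inhibitory neurons, however, the wild-type interval (300 to 335 CPM) overlapped those of the astrocyte-knockout (310 to 346) and neuron-knockout (333 to 362) libraries. Over all processing alternatives the 12 differences ranged from 0.05 (male inhibitory neurons, astrocyte-knockout) to 0.56 on the log2 scale. The share of mitochondrial UMIs moved with this comparison in part: by class it was 0.026 to 0.057% in the wild-type library and 0.005 to 0.014% in the neuron-knockout library, and its part in the result was not tested.

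Grin2a, whose subunit gives the receptor fast decay and comes to dominate mature synapses, differed widely between neuron classes. CA1 neurons had 3189, 3317, 3869 and 3334 CPM in the wild-type, total-, astrocyte- and neuron-knockout libraries, and dentate granule neurons had 2763, 2928, 3464 and 3025. Lamp5 inhibitory neurons, which include neurogliaform cells, were the exception among inhibitory classes with 2521 to 2810 CPM. CA2 and CA3 neurons had 2107 to 2320 CPM, and subicular or cortical neurons 962 to 1020 CPM, a level shared by Sst neurons (895 to 1076). The remaining inhibitory classes were lower still: Cck neurons had 449 to 709, Pvalb neurons 263 to 368 and Vip neurons 256 to 336 CPM. The Pvalb and Vip ranges overlapped, so the order of these 2 classes is not settled by these libraries.

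Grin2b, the subunit with slow decay that is prominent early in development, varied less between the same classes. It was highest in CA1 neurons (2371 to 2574 CPM). Dentate granule neurons (1706 to 1782), CA2 and CA3 neurons (1689 to 1798) and Vip neurons (1572 to 1824) had overlapping ranges. Sst neurons (1096 to 1200 CPM), Pvalb neurons (1094 to 1214) and subicular or cortical neurons (1104 to 1267) had lower, overlapping ranges, and Lamp5 neurons were lower still (917 to 1007). Vip and Pvalb neurons, alike in Grin2a, therefore differed in Grin2b.

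The number of Grin2a UMIs per 100 Grin2b UMIs does not depend on the scaling to CPM, and its change between classes can be read although its size is no ratio of molecules. It was 250, 301, 289 and 270 in Lamp5 neurons and 155, 166, 196 and 177 in dentate granule neurons of the wild-type, total-, astrocyte- and neuron-knockout libraries. CA1 neurons had 124 to 158 and CA2 and CA3 neurons 117 to 137. Pvalb neurons had 22.8 to 30.3 and Vip neurons 15.3 to 21.4, so Lamp5 and Vip neurons, both inhibitory, stood at the opposite ends of the neuron classes. The Lamp5 position is shared by an unnamed cluster led by Hapln1, Sfta3-ps and Mctp2, at 251 Grin2a UMIs per 100 of Grin2b. Among the clusters, the lowest value, 6.28, was in an unnamed group of 184 nuclei led by Ebf2, Samd3 and Ebf3, with 34.2 CPM of Grin2a and 545 CPM of Grin2b.

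**Figure D2:**
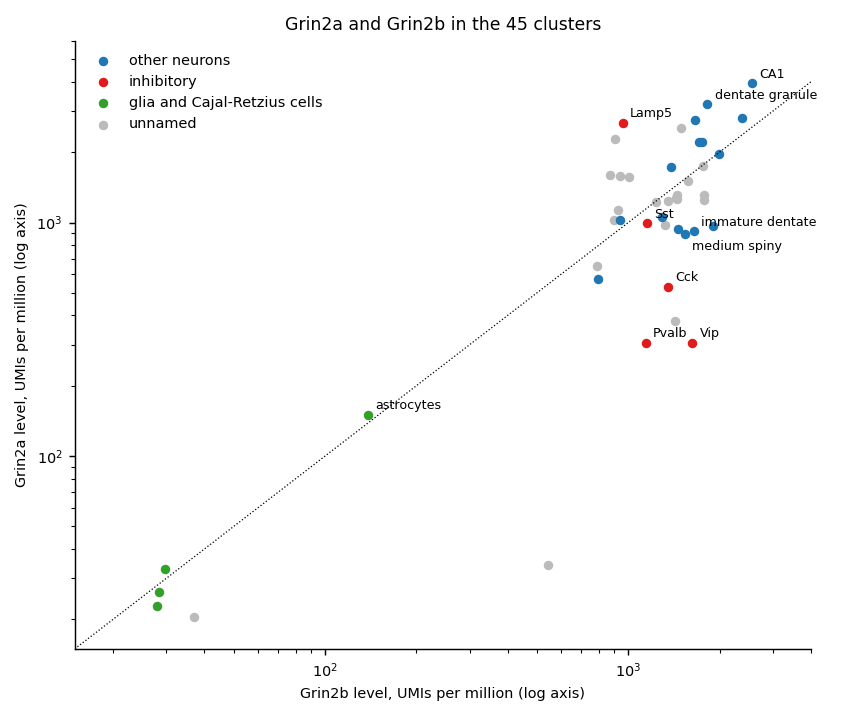
Level of Grin2a (CPM, log axis) against that of Grin2b (CPM, log axis) in the 45 clusters, 1 point per cluster with the nuclei of all libraries summed, coloured by kind of cell, with a dotted line of equal CPM drawn only as a guide, since levels of different genes are not compared. The Lamp5 and Vip clusters lie on opposite sides of the other named neurons in their number of Grin2a UMIs per 100 of Grin2b, and the isolated unnamed point at 34.2 CPM of Grin2a and 545 CPM of Grin2b is the cluster led by Ebf2.

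Immature dentate neurons, the Dcx- and Igfbpl1-expressing cells that mature into granule neurons, numbered only 76 nuclei over the 4 libraries. Summed over the libraries they had 917 CPM of Grin2a and 1645 CPM of Grin2b, or 55.8 Grin2a UMIs per 100 of Grin2b (47.1 to 65.8). Dentate granule neurons summed in the same way had 172. Grin2b thus lay near the granule neuron level while Grin2a lay below it. By library, Grin2a was 192 CPM in 24 wild-type nuclei (14 UMIs) and 579 in 35 total-knockout nuclei. It was 1817 in 11 astrocyte-knockout and 1683 in 6 neuron-knockout nuclei. All 4 libraries fall below the 50 nuclei set for a comparison.

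**Figure D3:**
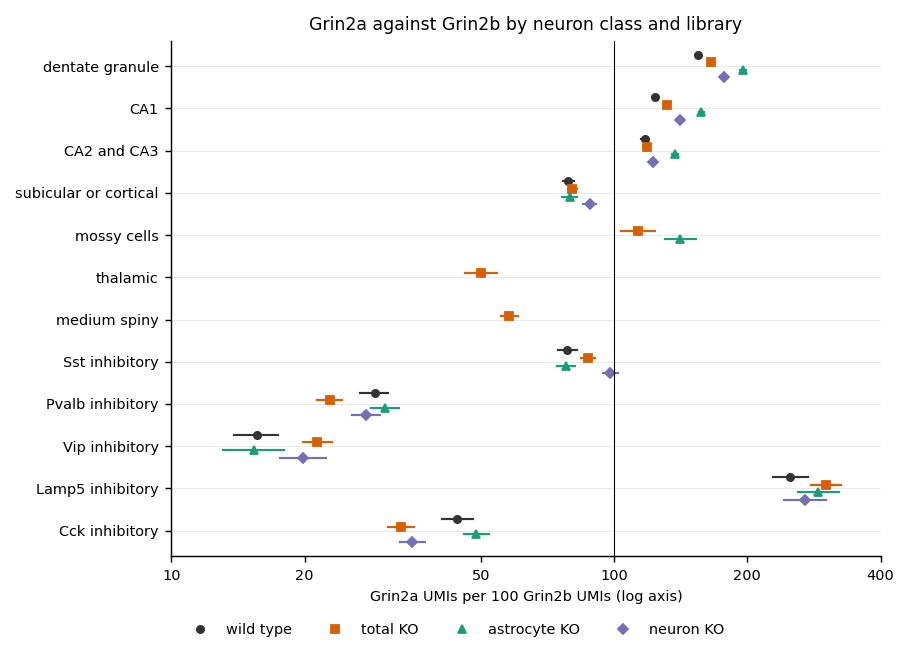
Grin2a UMIs per 100 Grin2b UMIs in each neuron class, 1 point per library with a 95% conditional binomial interval. Lamp5 neurons lie at 250 to 301 and Vip neurons at 15.3 to 21.4, with dentate granule neurons between them at 155 to 196.

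Between libraries, the astrocyte-knockout library had the highest Grin2a in the dentate gyrus and in CA1. The differences from the wild-type library were 0.33 on the log2 scale in dentate granule neurons, 0.28 in CA1 neurons and 0.14 in CA2 and CA3 neurons. Female and male nuclei of that library had 3332 and 3602 CPM in dentate granule neurons, against 2668 and 2879 in the wild-type and 2749 and 3269 in the neuron-knockout library. Male nuclei of the total-knockout library had 2936 CPM. Grin2a was thus higher in male than in female granule nuclei in each of the 3 libraries that hold both, and the astrocyte-knockout library was the highest within each sex. Its inhibitory neurons differed from the wild-type ones by 0.16, which changed to -0.13 where each library was clustered alone. Cck neurons had 606, 452, 709 and 449 CPM in the wild-type, total-, astrocyte- and neuron-knockout libraries, so the astrocyte-knockout value was again the highest, while the total- and neuron-knockout values were -0.42 and -0.43 from wild type on the log2 scale. The order was different in subicular or cortical neurons, where the astrocyte-knockout library was the lowest at 962 CPM against 973 to 1020, and in Sst neurons, where the neuron-knockout library was the highest at 1076 CPM. Grin2b differed from the wild-type library by -0.12 to 0.07 in the 4 large classes, and male nuclei of the total-knockout library by -0.04 to 0.01. The number of Grin2a UMIs per 100 Grin2b UMIs in dentate granule neurons went from 155 in the wild-type to 196 in the astrocyte-knockout library.

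Grin2c, whose subunit is known from cerebellar granule cells and astrocytes, was read almost only in astrocytes and thalamic neurons. Astrocytes had 249, 246, 278 and 397 CPM in the wild-type, total-, astrocyte- and neuron-knockout libraries, from 67, 36, 15 and 49 UMIs. Thalamic neurons of the total-knockout library had 78.4 CPM (68 UMIs), and the next class was Pvalb neurons with 2.75 to 4.67 CPM. CA1 neurons had 0 UMIs in all 4 libraries, where 3 counts would be 0.179 to 0.241 CPM and the upper ends of the Poisson intervals were 0.220 to 0.297 CPM. A Grin2c UMI was present in 43.6% of wild-type, 26.5% of total-knockout, 44% of astrocyte-knockout and 58.8% of neuron-knockout astrocytes. At a common depth of 2000 UMIs per nucleus, 43.2% of 74 wild-type astrocytes held one, against 0% of 192 oligodendrocytes of the same library (exact binomial upper bound 1.90%), whose median depth of 2038 UMIs was near the astrocytes' 2507. The number of astrocytes was 101, 98, 25 and 51, and 25 nuclei in the astrocyte-knockout library is below the 50 nuclei set for a comparison.

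The neuron-knockout astrocytes had the highest Grin2c, 0.67 above the wild-type library on the log2 scale (0.11 to 1.22), a fold of 1.59. The total-knockout astrocytes differed by -0.02, and by -1.14 to 0.15 over the alternatives that gave a value. The neuron-knockout difference turned to -0.17 where nuclei were assigned one by one by markers in place of clusters, so its direction depends on which nuclei are called astrocytes. The astrocyte nuclei also carried neuronal RNA in unequal amounts, and the order of the libraries differed between genes and marker lists. The wild-type astrocytes had 219 CPM of Grin2a and 186 CPM of Grin2b. The total-knockout ones had 20.5 and 13.7, and the neuron-knockout ones 32.4 and 97.2. All 59 wild-type Grin2a UMIs came from 4 nuclei, 3.96% of the class. A Grin2b UMI was present in 6.93% of wild-type, 2.04% of total-knockout and 19.6% of neuron-knockout astrocytes. The excitatory neuron markers summed to 346 CPM in wild-type astrocytes, with 7 of 7 detected, and to 34 and 57 CPM in the total- and neuron-knockout ones, with 3 of 7 detected. In the same order, the inhibitory markers summed to 807, 1047 and 502 CPM, and the dentate granule markers to 2544, 2681 and 2316 CPM. The oligodendrocyte markers summed to 193 CPM in wild-type, 219 in total-knockout and 526 in neuron-knockout astrocytes, and mitochondrial UMIs made up 0.138, 0.166 and 0.385%. The part of this RNA, and of RNA quality, in the astrocyte levels was not tested.

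Grin2d, a slow subunit with weak magnesium block known from interneurons, was concentrated in inhibitory classes. Among classes with at least 50 nuclei in a library, Vip neurons had the highest level. It was 65.9, 69.8, 83.2 and 117 CPM in the wild-type, total-, astrocyte- and neuron-knockout libraries. Lamp5 neurons had 54.6 to 65.2 CPM, Sst neurons 33.3 to 46.4, Pvalb neurons 34.3 to 42.3 and Cck neurons 36.7 to 55.0, so the Sst, Pvalb and Cck ranges overlapped. Outside the inhibitory classes, thalamic neurons had 53.0 CPM in the total-knockout library. Dentate granule, CA1 and CA2 and CA3 neurons had 3.62 to 5.48 CPM, and subicular or cortical neurons 9.06 to 12.7. At 2000 UMIs per nucleus, 12.8 to 18.9% of Vip nuclei held a Grin2d UMI. The same share was 0.858 to 1.18% of CA1 nuclei, and 0.521% of wild-type and 0% of total-knockout oligodendrocytes (upper bound 1.81%), taken as a class that lacks the subunit. The CA1 share was thus small and lay within the exact binomial bounds of the oligodendrocyte shares. Per UMI, CA1 neurons of the total-knockout library had 5.48 CPM (4.37 to 6.80), above the upper bound of 1.85 CPM for its oligodendrocytes, which held 0 Grin2d UMIs. In the wild-type library the levels did not separate, at 4.34 CPM (3.26 to 5.67) in CA1 neurons and 4.30 (1.17 to 11.0) in oligodendrocytes.

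In Vip neurons the neuron-knockout library had 1.78 times the wild-type Grin2d, 0.83 on the log2 scale (0.42 to 1.24). Of 10 settings, the main one included, only 8 gave a value, and the difference in these was 0.83 to 0.94. Mitochondrial UMIs made up 0.0535% in wild-type and 0.0247% in neuron-knockout Vip neurons, and their part in the difference was not tested. The total-knockout difference was 0.08 and ranged from -0.15 to 0.50. These Vip comparisons and those of Grin2c in astrocytes were picked after their values had been seen. Over the named inhibitory classes pooled, Grin2d was 40.2 CPM in the wild-type library. It was 50.7, 44.9 and 52.6 CPM in the total-, astrocyte- and neuron-knockout libraries, less than 1.5-fold apart. Male nuclei alone had 35.1 CPM in the wild-type and 49.2 in the total-knockout library, 0.49 on the log2 scale in place of 0.33. The makeup of that pooled class differed: Vip neurons were 19.7, 22.0, 11.7 and 12.2% of it in the wild-type, total-, astrocyte- and neuron-knockout libraries, and Cck neurons 12.5, 12.3, 18.1 and 20.2%.

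Grin3a, the subunit that lowers calcium entry and is known for delaying synapse maturation, marked Sst neurons and oligodendrocyte precursors. Sst neurons had 782, 865, 764 and 788 CPM in the wild-type, total-, astrocyte- and neuron-knockout libraries. Oligodendrocyte precursors had 663 CPM in the wild-type and 726 CPM in the total-knockout library, with a Grin3a UMI in 84.1 and 70.9% of nuclei. These are the only 2 libraries with 50 or more precursors. At 2000 UMIs per nucleus, 64.9 to 71.1% of Sst nuclei and 68.8 and 71.8% of precursors held a Grin3a UMI, against 4.17 and 0.99% of wild-type and total-knockout oligodendrocytes. The Grin3a shares of precursors and Sst neurons overlapped, while Grin1 was 33.7 and 25.4 CPM in the precursors.

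Among the other classes, Vip neurons (240 to 333 CPM) and Lamp5 neurons (234 to 309) followed with overlapping ranges. Subicular or cortical neurons had 116 to 144 CPM and CA1 neurons 87.0 to 107. Within CA1, the 2 clusters differed: cluster values were 149 CPM where Grin2a was 2790 and 61.6 CPM where Grin2a was 3945. Pvalb neurons had 58.4 to 83.1 CPM, below Sst neurons by more than the spread of the libraries. CA2 and CA3 neurons were the lowest hippocampal class with 4 libraries, at 5.81, 11.6, 7.05 and 6.80 CPM. Wild-type astrocytes had 242 CPM of Grin3a (65 UMIs in 29 nuclei) and total-knockout ones 192 (28 UMIs in 19 nuclei), and neuron-knockout ones had 32.4 CPM (4 UMIs in 3 nuclei). In the wild-type astrocytes Grin3a was thus spread over more nuclei than Grin2a.

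Wild-type oligodendrocytes had 59.1 CPM of Grin3a (55 UMIs in 18 of 363 nuclei) and total-knockout oligodendrocytes 3.52 CPM. The precursor markers moved the same way in them, at 1182 and 497 summed CPM, and their part in the Grin3a value was not tested.

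The largest Grin3a difference between libraries in the 4 large classes was in CA2 and CA3 neurons, where the gene is at its lowest. The total-knockout library had 11.6 CPM (128 UMIs) against 5.81 CPM (53 UMIs) in the wild-type library, 1.00 on the log2 scale (0.53 to 1.49), and 0.74 to 1.30 over the alternatives that gave a value, the lowest being that of male nuclei alone. Of the 3 clusters of the class, the one led by Vgll3 and Col6a1 differed most, at 28.1 CPM in the total-knockout (52 UMIs), 18.4 in the astrocyte-knockout, 3.70 in the wild-type (6 UMIs) and 3.45 in the neuron-knockout library. In the largest cluster, led by Mndal and Ifi203, the total-knockout level was 8.62 CPM against 6.87 in the wild-type library. The inhibitory markers summed to 15, 30, 10 and 25 CPM in the CA2 and CA3 class of the wild-type, total-, astrocyte- and neuron-knockout libraries, and the Sst list to 676, 688, 763 and 668. The part of inhibitory RNA in this difference was not tested. In dentate granule neurons Grin3a was 45.6, 45.4, 32.8 and 42.5 CPM. The lower astrocyte-knockout value, -0.47 on the log2 scale, was found in female nuclei (26.1 against 48.3 CPM), while its male nuclei had 43.5 against 39.5 CPM, or 0.14.

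Set against a fold of 1.5 in either direction, 1 of 57 subunit ratios in the 4 large classes was past it: Grin3a in CA2 and CA3 neurons of the total-knockout library. A ratio counted where the gene had at least 100 UMIs over both libraries, which Grin2c did in none of these classes and Grin2d did not in CA2 and CA3 neurons. Of all genes tested, the share past 1.5-fold in the total-, astrocyte- and neuron-knockout libraries was 5.62, 5.4 and 4.69% in dentate granule neurons, with 0 of 15 subunit ratios. It was 5.48, 3.22 and 4.47% in CA1 neurons with 0 of 15, 4.78, 2.43 and 4.29% in CA2 and CA3 neurons with 1 of 12, and 5.22, 4.49 and 5.37% in inhibitory neurons with 0 of 15. The subunits' share was therefore near the background. In Vip neurons 1 of 15 ratios, Grin2d in the neuron-knockout library, was past the fold, where the background was 4.7, 5.77 and 5.58%. In astrocytes only Grin2c could be counted, in 2 libraries, and 1 of 2 was past it, where the background was 11.4% for the total- and 12.1% for the neuron-knockout library. No subunit ratio was past the fold in the remaining classes with 50 nuclei in both libraries. These were 0 of 15 in subicular or cortical neurons, where the background was 4.36, 4.34 and 4.27%, 0 of 15 in Sst neurons (5.07, 4.98 and 5.33%) and 0 of 15 in Pvalb neurons (4.82, 5.11 and 4.86%). Lamp5 neurons had 0 of 12 (5.48, 4.83 and 6.29%), Cck neurons 0 of 15 (6.69, 4.64 and 6.89%), and precursors 0 of 1, for Grin3a in the total-knockout library (4.78%).

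At a lower limit of 0.32 on the log2 scale, 5 of 15 ratios were past it in dentate granule neurons: Grin1 in the total- and neuron-knockout, Grin2a in the astrocyte-knockout and Grin2d in the neuron-knockout library were higher, and Grin3a in the astrocyte-knockout library was lower. Of all genes tested there, 18.6, 19.9 and 18.9% were past it in the total-, astrocyte- and neuron-knockout libraries. CA1 neurons had 2 of 15, Grin1 in the neuron-knockout and Grin2d in the total-knockout library, beside 18.6, 15.9 and 17.6%. CA2 and CA3 neurons had 2 of 12, Grin1 in the neuron-knockout and Grin3a in the total-knockout library, beside 19, 14.7 and 17.9%, and inhibitory neurons had 2 of 15, both Grin2d, beside 19.4, 19.4 and 20.5%. The median subunit difference in dentate granule neurons was -0.00 on the log2 scale in the total-knockout, 0.27 in the astrocyte-knockout and 0.13 in the neuron-knockout library, where the median over all genes was -0.04, -0.05 and -0.03.

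**Figure D4:**
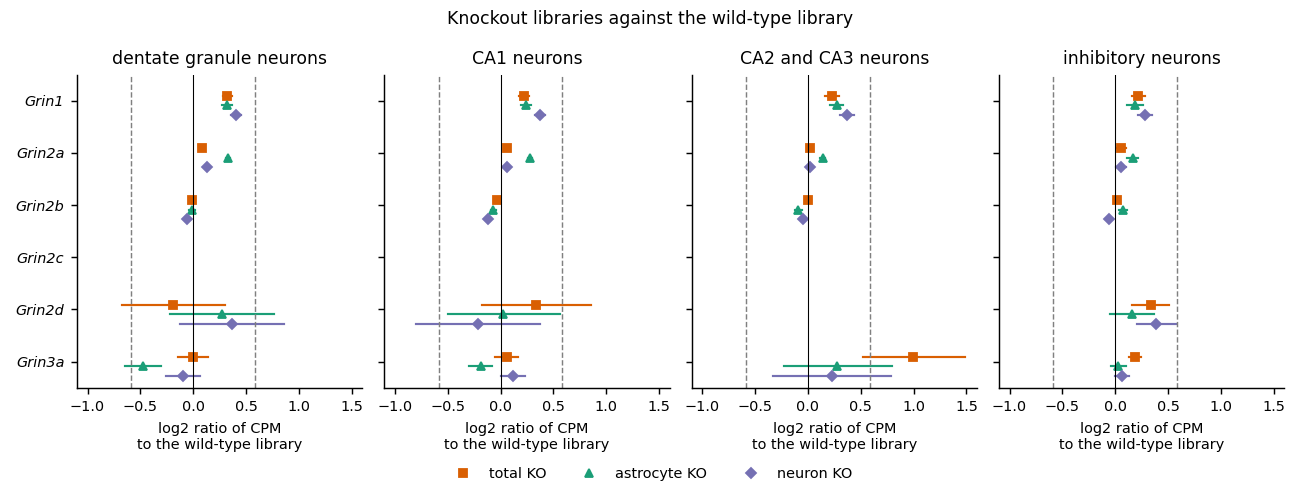
Log2 ratio of each subunit gene to the wild-type library, in the 4 large classes, by knockout library, with 95% conditional binomial intervals and dashed lines at a fold of 1.5. All Grin1 points lie above 0, Grin2b points lie near 0, and Grin3a in CA2 and CA3 neurons of the total-knockout library lies at 1.00.

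The genes that supply, anchor, transport or act on the receptor were followed as a list of 28. In dentate granule neurons 25 of them could be tested (Slc7a10, Dao and Grin3b had too few UMIs), and in CA1 neurons 24, Rph3a being the other. None was lower by 1.5-fold in any of the 4 large classes and at most 1 was higher in each comparison of 24 or 25 genes, where 2.43 to 5.62% of all genes were past the fold in either direction. The median difference was between 0.03 and 0.13 on the log2 scale. Kif17, the motor that carries GluN2B-bearing vesicles along dendrites, was at 23.6 CPM in wild-type dentate granule neurons and at 36.6, 41.3 and 35.2 CPM in the total-, astrocyte- and neuron-knockout ones. The first 2 differences, 0.64 and 0.81 on the log2 scale, were past 1.5-fold and the last, 0.58, was just under it. Rasgrf2, an exchange factor that links NMDA receptors to Ras signalling, was at 8.04 CPM in wild-type CA1 neurons and at 14.8, 12.7 and 10.7 CPM in the knockout ones, of which the first 2 were past 1.5-fold. The wild-type library was thus the lowest for both genes. Outside the rule for naming genes, and chosen after their values were seen, Cdk5 in total-knockout (0.63) and Nos1 in astrocyte-knockout CA2 and CA3 neurons (0.60), and Nos1 in total-knockout inhibitory neurons (0.76) were past the fold.

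For each subunit, the genes with the most similar profile were sought over 16 classes among 13272 genes, by Pearson's r of log2 CPM, as a description without a test, since the classes share libraries and depth. Grin1 was most like Unc13a (r = 0.98), Clvs1 and Cx3cl1. Grin2a was most like Cnih2 (0.95), Camkv and Rbfox3. Grin2b was most like Gm14329 (0.97), which lies inside Grin2b on the other strand and may share reads with it, then Morc2b and Rbfox3. Grin2c was most like Hs3st3b1 (0.96), Ccdc141 and Ucp3, Grin2d like Rtbdn (0.92) and Gm21691, and Grin3a like Farp1 (0.83), Slc39a13 and Plekho1. Among the subunits themselves, Grin2a and Grin2b had the highest r (0.92), followed by Grin1 with Grin2b (0.79) and Grin1 with Grin2a (0.72). Grin2d with Grin3a had 0.60. The 16 classes include glia and Cajal-Retzius cells, which were low in both Grin2a and Grin2b. The r over neuron classes alone was not computed, and Lamp5 and Vip neurons differed widely in Grin2a relative to Grin2b.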

How the data were processed

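Nuclei of mouse hippocampus were profiled with the RNA part of a 10x Multiome assay. The UMI counts per gene and barcode were deposited by the authors, made with Cell Ranger ARC 2.0.0 on mm10 per the submitters' processing notes, and the deposited barcodes already lie between 400 and 5998 genes. Nuclei with at least 500 genes and at most 5% mitochondrial UMIs were kept, and doublets predicted with scrublet in scanpy 1.11.5 (0.8% per 1000 nuclei) were removed. The 4 libraries were clustered together (2000 variable genes without the subunits, 30 components, 15 neighbours, Leiden resolution 1, leidenalg 0.10.2). A cluster could take a name from a marker list only where at least 3 markers were detected in 10% of its nuclei at 2-fold. That minimum was not the whole rule. Some clusters that passed it stayed unnamed because their top genes pointed more to a different cell type. The cluster led by Hapln1, Sfta3-ps and Mctp2, with 4 of 6 Lamp5 markers, was one of them. Its nuclei are therefore not in the pooled inhibitory neurons. A class name thus means nuclei that are like that type by these markers. Gating nuclei one by one assigned 59% of them, with 12048 near the cut. Of the nuclei that were both gated and in a named cluster, 95.25% had the same class.

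UMIs were summed per class and library, and scaled to CPM over the 20211 shared genes. With 1 library per genotype no test was made. Ratios needed 100 UMIs over both libraries, and shares of nuclei with a UMI were compared after thinning to 2000 UMIs. Intervals cover counting error. The text names all 6 subunits, the listed partner genes past 1.5-fold in dentate granule or CA1 neurons, and the 3 genes most like each subunit (at 10 CPM or more in 1 class, on log2 of CPM plus 1), of which 1 is not reported here. The members and lists were chosen with earlier results of these data known. The ratio script was tested on simulated data. Python 3.11.15, numpy 2.4.6 and scipy 1.17.1 were used. Alternatives are listed after the report.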

Additional observations from a re-analysis of the deposited data

How the results depend on the processing

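The subunit counts past 1.5-fold were 0, 0, 1 and 0 in dentate granule, CA1, CA2 and CA3, and inhibitory neurons. With a lower limit of 0.32 on the log2 scale they were 5, 2, 2 and 2. With nuclei thinned to 2000 UMIs the CA2 and CA3 count was 0 of 9, because Grin3a then had under 100 UMIs. A minimum of 20 UMIs left all 4 counts as they were. Of 62 subunit ratios, 40 kept 1 sign under all alternatives that gave them a value. TMM scaling moved 20, male nuclei alone 22, thinning 16, each library clustered alone 11, doublets kept 9, every nucleus weighed the same 9, and gating nuclei one by one 4, beyond their counting intervals. Gating also took 1 further ratio, Grin2c in neuron-knockout astrocytes, beyond its interval and reversed it. A minimum of 1000 genes and clustering at resolution 2 moved 0. The other 22 changed sign under at least 1 alternative, such as Grin2a in astrocyte-knockout inhibitory neurons (0.16 to -0.13 when each library was clustered alone). Of the 3 ratios past 1.5-fold, 1 did so, Grin2c in neuron-knockout astrocytes, which went to -0.17 when gated, and the cause was not tested. The alternatives for Vip Grin2d and astrocyte Grin2c were chosen after seeing the data. The TMM offsets in the 4 large classes were -0.06 to -0.01, and ratios rose by as much when they were taken out. No paired analysis was possible because each genotype has 1 library. For the same reason no replicate could be left out. Depth limits Grin2c outside astrocytes, thalamic and Pvalb neurons, and Grin2d in excitatory neurons, where values rest on few UMIs. A summed level cannot tell more expressing nuclei from more RNA in each.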
